A study of Mus musculus with 6 samples.

Results

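Adipokines are proteins that fat cells release to act on other cells, and 10 of their genes were named for this account: Adipoq, Lep, Retn, Nampt, Apln, Rarres2, Angptl4, Lcn2, Agt and Nrg4. A gene was taken as measured where a probe set of the array carried its symbol alone, and the probe set with the highest mean stood for it. This left 9 measured genes of 21996 on the array, with 1 probe set each. The only probe set of Rarres2, the chemerin gene, also carries the symbol Lrrc61, so Rarres2 was not analysed here. Expression was read on single-colour Affymetrix arrays in adipocytes derived from C3H10T1/2, a mouse mesenchymal stem cell line. All 6 cultures had 9 days of differentiation and, for 72 h at a multiplicity of infection of 50, an adenovirus with a short hairpin RNA under a U6 promoter. In 3 biological replicates the hairpin was a scrambled sequence (scramble), and in 3 it was directed at Zc3h10 (Zc3h10 shRNA), which encodes an RNA-binding CCCH zinc finger protein. The comparison asks which transcripts differ when the hairpin targets Zc3h10, in a culture of 1 cell line with 1 hairpin sequence and no uninfected culture among the samples analysed here.

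Fat tissue signals through such factors to the brain, liver, muscle and vessels. Adiponectin and leptin report energy stores and shape insulin action and appetite, and resistin opposes insulin action in mice. Others act nearer to the cell that makes them, on vessels, nerves, lipases or immune cells. Many adipokine genes are switched on late in adipogenesis, when the nuclear receptor PPARγ and the factor C/EBPα are active.

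Adipokine transcripts were lower in adipocytes given the Zc3h10 hairpin. Of the 9 measured genes, 7 fell (Angptl4, Retn, Nrg4, Adipoq, Agt, Nampt and Apln) and 0 rose, by limma with Benjamini-Hochberg adjustment over 33079 probe sets at an adjusted p under 0.05. Of all named genes, 6.60% were called lower and 5.51% higher at that adjusted threshold. Shares over all named genes, here and below, include genes with signal near background. At an unadjusted p under 0.05 the member counts were also 7 lower and 0 higher. No share of all named genes is given for unadjusted counts, here or for the lists below. Falls of at least 2-fold were measured for 3 members, against 1.23% of all named genes. The groups of 3 arrays did not overlap, with Zc3h10 shRNA lower, for 7 members, against 15.2% of all named genes. The median log2 change was −0.73 over the 9 members and 0.01 over all named genes. Leptin, Lep, and lipocalin, Lcn2, did not pass. In such bulk cultures, fewer mature fat cells and less RNA per fat cell cannot be told apart. Each log2 change is the Zc3h10 shRNA mean less the scramble mean, ± the standard error of the fit, and intensities are in array units.

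**Figure D1:**
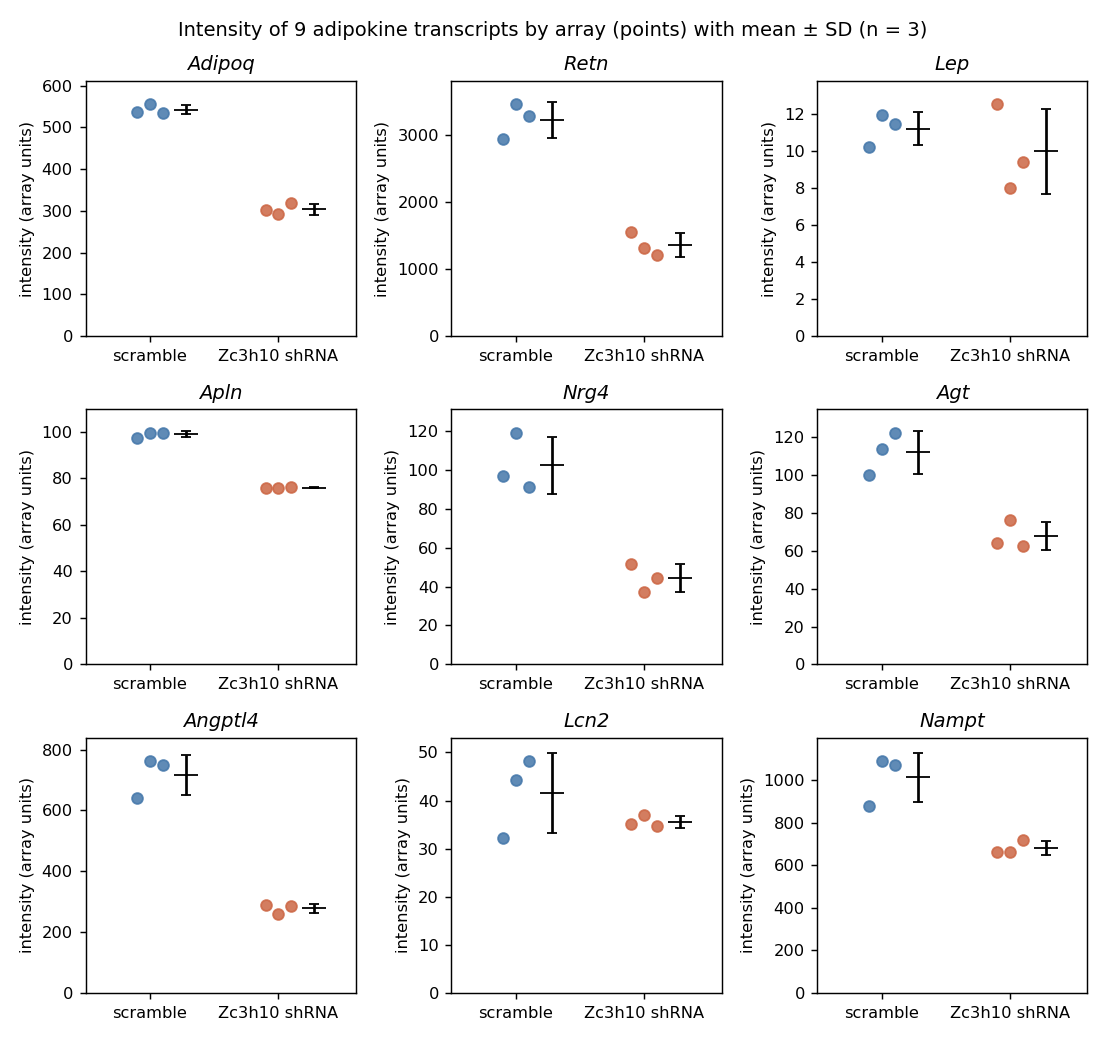
Intensity of the 9 measured adipokine transcripts (y axis, array units, from 0) on each of the 3 scramble and 3 Zc3h10 shRNA arrays (points), with mean ± SD beside them. The groups are apart for 7 genes and overlap for Lep and Lcn2.

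Facts of the whole series set the frame for these values. Array medians ran from 15.6 to 16.1. Over all probe sets, Pearson r was 0.992 to 0.994 for pairs of arrays within a group and 0.985 to 0.988 between groups. Zc3h10 itself averaged 33.4 ± 6.77 (SD, n = 3) in scramble and 26.1 ± 3.72 (SD, n = 3) in Zc3h10 shRNA cells, which did not pass (limma, adjusted p = 0.301). The number of arrays limits the precision. The 2-sided exact permutation test over 3 against 3 arrays cannot go below 0.1, and gave 0.1 for each of the 7 called members. As a guide to background, 1379 genes of olfactory and vomeronasal receptors, which cells other than sensory neurons rarely express, were used: the central 95% of their mean log2 values ended at 4.37 (20.7 array units). A gene under that limit is called dim here, and its change is not read. The limit lies above every array median, so shares over all named genes include many dim genes, while Lep is the only dim member. With probe sets of below-median mean log2 left out, 4454 were called, against 3238 of all 33079. The share among genes above the limit was not computed.

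Of the circulating hormones, adiponectin and resistin fell. Adipoq encodes adiponectin, a fat cell hormone of the C1q family that raises insulin sensitivity. Its intensities were 537, 555 and 535 in scramble replicates 1 to 3 and 301, 292 and 318 in Zc3h10 shRNA replicates 1 to 3, the order used for every gene. The groups were far apart, with little spread inside either. The means of 542 ± 11.3 and 303 ± 13.3 (SD, n = 3) gave a log2 change of −0.84 ± 0.08, or 55.9% of scramble with a 95% confidence interval of 48.8 to 64.0% (limma, adjusted p = 0.00116).

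Retn encodes resistin, a cysteine-rich hormone that mouse adipocytes secrete. Scramble values were 2939, 3464 and 3280.5, and Zc3h10 shRNA values were 1556, 1321 and 1209. Every Zc3h10 shRNA array lay below every scramble array, with scramble replicate 1 the lowest of its group. The means of 3228 ± 266 and 1362 ± 178 (SD, n = 3) differed by −1.25 ± 0.12, or 2.38-fold (limma, adjusted p = 0.00100).

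Lep encodes leptin, the satiety hormone, and its probe set was dim in both groups. It read 10.23, 11.97 and 11.45 in scramble and 12.53, 8.03 and 9.41 in Zc3h10 shRNA cells, all under the 20.7 limit. The highest and the lowest of the 6 values both came from Zc3h10 shRNA arrays, so the groups overlapped. The change was −0.19 ± 0.16 (limma, adjusted p = 0.586), with a 95% confidence interval of −0.56 to 0.19, and a leptin response was not detectable at this signal.

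Among Nrg4, Agt and Apln, genes of receptor ligands or of a ligand precursor, Nrg4 showed the largest fall. Neuregulin 4 is an epidermal growth factor family ligand, rich in brown fat, that binds ErbB receptors. Nrg4 read 96.7, 119 and 91.3 in scramble and 51.7, 37.2 and 44.5 in Zc3h10 shRNA cells. The highest Zc3h10 shRNA array stayed well under the lowest scramble array. The change was −1.21 ± 0.15, or 43.4% of scramble with a 95% confidence interval of 34.1 to 55.1% (limma, adjusted p = 0.00239).

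Agt encodes angiotensinogen, the precursor from which angiotensin peptides are cut. Its values were 99.7, 114 and 122 in scramble and 64.3, 76.1 and 62.6 in Zc3h10 shRNA cells. The groups did not overlap, though Zc3h10 shRNA replicate 2 stood nearest to scramble. The change was −0.73 ± 0.12, or 1.65-fold lower (limma, adjusted p = 0.00728). With an ordinary t statistic the adjusted p was 0.0591.

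Apln encodes apelin, a peptide ligand with effects on vessels and heart. It read 97.3, 99.5 and 99.5 in scramble and 75.9, 75.7 and 76.0 in Zc3h10 shRNA cells. The arrays of a group were nearly equal, and scramble replicates 2 and 3 held the same value, as 2 or more arrays did for 738 probe sets (2.23%). The change was small, at −0.38 ± 0.08, or 76.8% of scramble (limma, adjusted p = 0.0219). It missed the threshold without any 1 of the 6 arrays, with adjusted p up to 0.0791 without scramble replicate 2.

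Angptl4 had the largest fall of the 9. Angiopoietin-like 4 is a secreted inhibitor of lipoprotein lipase, and its gene is a classical PPAR target. Intensities were 642, 762 and 749 in scramble and 288, 261 and 285 in Zc3h10 shRNA cells. No array came near the other group. The means of 718 ± 65.8 and 278 ± 14.7 (SD, n = 3) differed by −1.37 ± 0.10, or 2.58-fold, to 38.8% of scramble with a 95% confidence interval of 32.9 to 45.7% (limma, adjusted p = 0.000658).

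Nampt encodes nicotinamide phosphoribosyltransferase, an enzyme of NAD salvage that is also found outside the cell. It read 879, 1089 and 1069 in scramble and 664, 662 and 717 in Zc3h10 shRNA cells. The groups were apart, with scramble replicate 1 the nearest to the Zc3h10 shRNA arrays. The change was −0.57 ± 0.11, or 67.5% of scramble (limma, adjusted p = 0.0152). Without scramble replicate 2, scramble replicate 3 or Zc3h10 shRNA replicate 2 it missed the threshold (adjusted p = 0.0641, 0.0608 and 0.0580), as it did with an ordinary t statistic (adjusted p = 0.0714).

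Lcn2 encodes a lipocalin that carries iron-binding siderophores and is induced in inflammation. It read 32.2, 44.2 and 48.2 in scramble and 35.1, 37.0 and 34.7 in Zc3h10 shRNA cells. The Zc3h10 shRNA arrays sat together inside the wider scramble range, above scramble replicate 1. The change was −0.20 ± 0.15, with a 95% confidence interval of −0.55 to 0.14 (limma, adjusted p = 0.515).

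**Figure D2:**
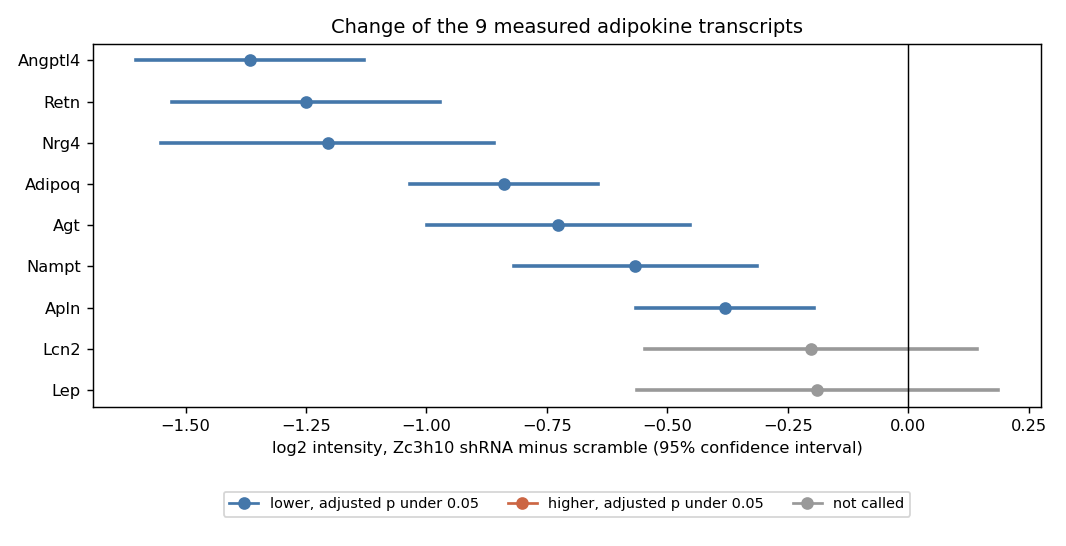
Log2 change of the 9 measured transcripts (x axis, Zc3h10 shRNA minus scramble) as point and 95% confidence interval, ordered by size. The intervals of Angptl4, Retn and Nrg4 lie below those of Apln, and only Lcn2 and Lep cross 0.

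The members differed in the size of their fall. Ranked from the most lowered of 21996 named genes, Angptl4 stood at 90, Retn at 131, Nrg4 at 144 and Adipoq at 420. Agt stood at 589, Nampt at 934 and Apln at 1751, with Lcn2 at 3684 and Lep at 3966. As percent of scramble, the 95% confidence intervals of Angptl4 (32.9 to 45.7%) and Apln (67.6 to 87.3%) did not meet, whereas those of Adipoq (48.8 to 64.0%), Agt (50.0 to 73.0%) and Nampt (56.7 to 80.4%) overlapped. In scramble, replicate 1 was the lowest array for 7 of the 9 members, against 35.1% of all named genes. In the Zc3h10 shRNA group replicate 2 was the lowest for 6 of 9, against 32.2%.

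Markers of cell type moved beside these falls. Of 10 mature adipocyte markers that hold no member, 10 fell, beside 6.60% of all named genes. Among them were the lipid droplet gene Plin1 and the glycerol channel gene Aqp7. The median of the 10 was −0.98, and none was dim. With an ordinary t statistic 9 of the 10 were called lower, as Lipe missed the threshold (adjusted p = 0.0765). Their summed intensity was 21391 to 23798 on scramble and 11871 to 12767 on Zc3h10 shRNA arrays. Of 9 measured preadipocyte and fibroblast markers, Fap, Prrx1 and Pdgfrb were called higher and Pdgfra lower, beside 5.51% and 6.60% of all named genes. The median over the 9 was −0.03, and 2 were dim. With an ordinary t statistic Pdgfrb missed the threshold (adjusted p = 0.0618), leaving 2 called higher. An intensity trend gave 4 higher. The sum of the 9 was 5643 to 6520 on scramble and 7072 to 7363 on Zc3h10 shRNA arrays. Fap was 1 of the 2 dim genes by its mean over all arrays. It read 12.5, 12.3 and 10.4 in scramble, under the limit, and 35.0, 39.9 and 34.2 in Zc3h10 shRNA cells, above it. With its scramble values at background, the size of its change is not read. Macrophage markers, 8 of 10 dim, Adgre1, Csf1r and Ptprc among them, summed to 154 to 163 in scramble and 145 to 161 in Zc3h10 shRNA cells. Endothelial markers, 7 of 8 dim, with Pecam1, Cdh5 and Kdr among these, summed to 125 to 136 and 128 to 151. In both of these lists limma called 0, also 0 at an unadjusted p under 0.05 and 0 with an ordinary t statistic. The part of cell composition in the adipokine falls was not tested.

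The members were also set against the fat cell markers inside each array, a measure added after the values were seen and given with no test. It is not a correction for cell composition. The mean log2 of the 10 mature adipocyte markers fell by 1.06 ± 0.07 (SE over arrays), to 48.0% of scramble. A gene with no change of its own would therefore lie near 1.06 above the markers, and the median change of all named genes was 0.01. Values above the markers thus mean only a smaller fall than theirs, and the share of all named genes there was not computed. Relative to the marker mean, Angptl4 changed by −0.31 ± 0.02, at −0.31, −0.32 and −0.29 on the 3 Zc3h10 shRNA arrays, with scramble arrays between −0.03 and 0.02. Retn was at −0.19 ± 0.10 with the groups only just apart (highest Zc3h10 shRNA value −0.05, lowest scramble value −0.02), and Nrg4 at −0.15 ± 0.14 with the groups overlapping. The same marker mean was subtracted for every member, so the order of their changes was kept by construction. The 3 genes with the largest falls thus came lowest, and were at or below the fat cell markers. Adipoq (0.22 ± 0.07), Agt (0.33 ± 0.13), Nampt (0.49 ± 0.06) and Apln (0.68 ± 0.07) were above the markers, with no overlap between groups for any of the 4, although the lowest Zc3h10 shRNA value of Adipoq (0.15) was close to the highest scramble value (0.11). Lcn2, whose own change was not called, was at 0.86 ± 0.14. Lep, being dim, was not read on this scale.

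**Figure D3:**
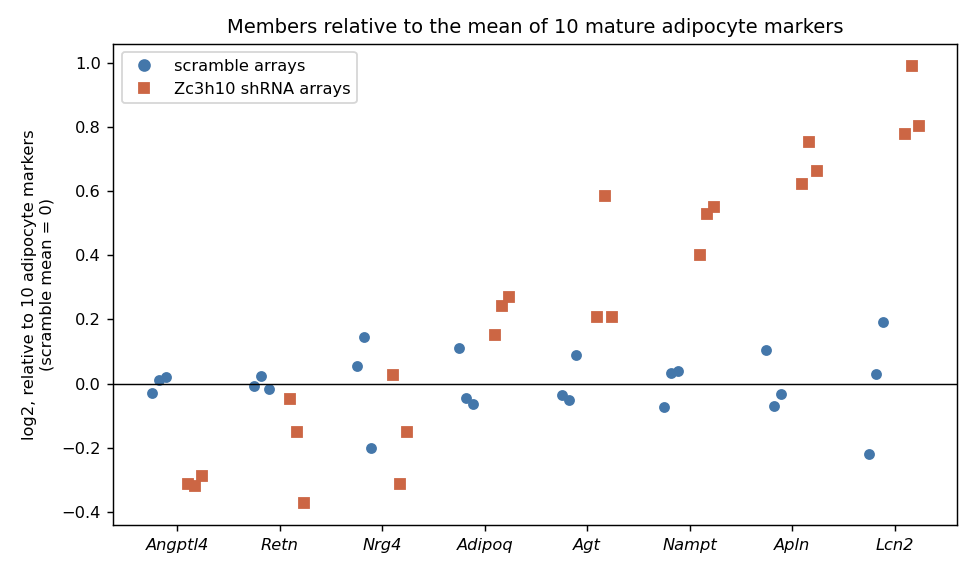
Log2 of each member but Lep minus the mean log2 of 10 mature adipocyte markers per array (y axis, scramble mean set to 0). Circles are scramble and squares Zc3h10 shRNA arrays. Angptl4 and Retn lie below 0 on the 3 Zc3h10 shRNA arrays, with 1 Retn value near it (−0.05), and Nrg4 lies on both sides. Adipoq, Agt, Nampt, Apln and Lcn2 lie above 0 there. As the markers themselves fell, a gene with no change of its own would also lie above 0 there.

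The stretch before the gene start is shown for Adipoq, Retn, Nrg4 and Agt, which fell together, and for Lep, the dim member, to let their base composition and short motifs be compared. The RefSeq promoter table (GRCm38.p6) matched 8 of the 10 genes, without Angptl4 and Rarres2. Each line gives the 250 bases before the start used in that table, 5′ to 3′ on the strand of the gene. For Nrg4 that start lies inside the annotated gene, so the last 29 bases of its line are within the gene. Capitals mark matches, on either strand, to the CCAAT box (CCAAT), the TATA box (TATAAA), the nuclear receptor half-site (AGGTCA) or the palindrome bound by C/EBP factors (TTGCGCAA).
Adipoq, chr16:23146286-23146535, plus strand: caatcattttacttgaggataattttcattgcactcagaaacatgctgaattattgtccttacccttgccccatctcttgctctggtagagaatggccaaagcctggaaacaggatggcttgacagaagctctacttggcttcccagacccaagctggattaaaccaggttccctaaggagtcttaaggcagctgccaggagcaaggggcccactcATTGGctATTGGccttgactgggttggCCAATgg
Retn, chr8:3655520-3655769, plus strand: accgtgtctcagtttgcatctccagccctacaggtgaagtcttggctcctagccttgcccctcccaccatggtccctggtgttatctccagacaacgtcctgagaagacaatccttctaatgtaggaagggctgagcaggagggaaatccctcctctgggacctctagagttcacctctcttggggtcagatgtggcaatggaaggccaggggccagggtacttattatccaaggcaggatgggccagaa
Nrg4, chr9:55283626-55283875, minus strand: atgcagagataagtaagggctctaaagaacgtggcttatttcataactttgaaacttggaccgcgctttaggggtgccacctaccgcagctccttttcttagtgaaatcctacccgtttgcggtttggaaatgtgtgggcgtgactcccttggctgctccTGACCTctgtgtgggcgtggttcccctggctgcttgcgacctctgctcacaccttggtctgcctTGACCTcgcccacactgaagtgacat
Agt, chr8:124569707-124569956, minus strand: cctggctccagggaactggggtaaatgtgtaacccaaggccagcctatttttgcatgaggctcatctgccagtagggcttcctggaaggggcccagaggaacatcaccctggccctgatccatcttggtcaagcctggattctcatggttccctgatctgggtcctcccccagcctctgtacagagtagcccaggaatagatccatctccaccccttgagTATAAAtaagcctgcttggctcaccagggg
Lep, chr6:29059971-29060220, plus strand: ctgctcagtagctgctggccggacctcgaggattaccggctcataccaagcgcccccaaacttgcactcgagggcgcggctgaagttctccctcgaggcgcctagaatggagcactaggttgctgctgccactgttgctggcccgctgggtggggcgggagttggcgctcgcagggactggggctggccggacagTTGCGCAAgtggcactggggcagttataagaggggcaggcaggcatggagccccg

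Adipoq held CCAAT 3 times, at 34 to 30, 27 to 23 and 7 to 3 bases before the start, and no other of the 8 stretches held it. The box was found in 33.8% of 32851 promoter stretches of this length. Agt held TATAAA 30 to 25 bases before the start (12.4% of all). Nrg4 held the nuclear receptor half-site at 90 to 85 and 26 to 21 bases before the start, both on the opposite strand, the second of them within the annotated gene, and Nampt held it 151 to 146 bases before (14.0% of all). Lep held the C/EBP palindrome 55 to 48 bases before the start (0.164% of all). No 2 matches overlapped, and Retn, Apln and Lcn2 held none of the 4 motifs in this window. Adipoq and Agt held no CpG and had 48.8% and 55.6% GC, while Nampt held 27 CpG with 75.6% GC, Lep 16 with 65.6% and Apln 12 with 65.2%. The median over all stretches was 6 CpG and 52.4% GC. These matches describe letters only.

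Receptors and adaptors of the members changed in few cases. Of 20 measured genes, 1 fell and 1 rose, beside 6.60% and 5.51% of all named genes, with a median of 0.00 and 11 of the 20 dim. The gene that fell was Adipor2, one of the adiponectin receptors, which acts on lipid oxidation through PPARα. It read 1071, 1200.0 and 1157 in scramble and 571, 554 and 553 in Zc3h10 shRNA cells. Thus the adiponectin gene and this receptor gene were both lower on every Zc3h10 shRNA array. The Adipor2 change was −1.03 ± 0.09, or 49.0% of scramble (limma, adjusted p = 0.000727). Its relative Adipor1 was at −0.06 ± 0.09, with a 95% confidence interval of −0.26 to 0.13 (limma, adjusted p = 0.751). Cdh13, a cell surface protein that binds adiponectin, was at −0.18 ± 0.11, and the signalling adaptor gene Appl1 at −0.27 ± 0.10, and neither passed (limma, adjusted p = 0.389 and 0.164).

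The receptor gene that rose was Agtr2, one of the angiotensin receptors. It read 177, 168 and 164 in scramble and 283, 289 and 303 in Zc3h10 shRNA cells. The groups were apart in the direction opposite to that of Agt. The change was 0.78 ± 0.09, or 1.72-fold higher (limma, adjusted p = 0.00150). The type 1 receptor genes Agtr1a and Agtr1b, near-identical copies that can share probes, were dim. Of 7 measured genes of angiotensin processing, limma called 0, with 1 lower and 1 higher at an unadjusted p under 0.05 and 0 by an ordinary t statistic. The lysosomal protease gene Ctsd was at −0.34 ± 0.09 (limma, adjusted p = 0.0507), and became a call with dim probe sets left out, an intensity trend, an offset of 32 or median centring. Atp6ap2, the prorenin receptor gene, was at 0.31 ± 0.10 and was called higher with dim probe sets left out, an intensity trend or the offset. Mme was at 0.19 ± 0.08 and was called higher with the trend or the offset, which made 2 higher and 1 lower. Enpep, which trims angiotensin, was at −0.01 ± 0.08.

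The receptor genes of the other ligands were dim or did not pass. Lepr (leptin), Aplnr (apelin), Erbb4 (neuregulin 4) and Gpr1 and Ccrl2 (both chemerin) were dim in both groups, as were Lrp2, which takes up Lcn2, and the angiotensin peptide receptor gene Mas1. Cmklr1, the main chemerin receptor gene, lay at the limit, at 21.0 and 18.6. Erbb3 was dim at 0.37 ± 0.13 (limma, adjusted p = 0.143), and its partner Erbb2 was at 0.23 ± 0.11 (limma, adjusted p = 0.287). Slc22a17, reported as an Lcn2 receptor gene, was at 0.12 ± 0.10, Cap1, reported to bind resistin, at 0.08 ± 0.10, and Tlr4 at 0.04 ± 0.10.

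Relatives of the members were called in both directions. Of 9 measured genes in the C1q/TNF-related family of adiponectin, 1 fell and 1 rose, beside 6.60% lower and 5.51% higher of all named genes, with a median of 0.06 and 5 dim. C1qtnf12, a secreted factor of fat tissue, read 129, 153 and 134 in scramble and 66.5, 38.7 and 51.5 in Zc3h10 shRNA cells. Its values were lower on every Zc3h10 shRNA array, by −1.44 ± 0.19 (limma, adjusted p = 0.00279; 0.0554 with an ordinary t statistic). C1qtnf6 rose by 0.69 ± 0.12 (limma, adjusted p = 0.0111; 0.0764 with an ordinary t statistic), and C1qtnf1 was at 0.53 ± 0.18 (limma, adjusted p = 0.114). Of 12 other measured relatives, 1 fell and 1 rose, beside the same 6.60% and 5.51%, with a median of 0.07 and 7 dim. The relative that rose was Nrg1, another neuregulin ligand of ErbB receptors. Nrg1 read 223, 195 and 191 in scramble and 437, 439 and 474 in Zc3h10 shRNA cells. These arrays were as clearly apart as those of Nrg4, but in the other direction, with a change of 1.15 ± 0.10, or 2.22-fold (limma, adjusted p = 0.000727). Nrg2 was at −0.07 ± 0.14 and Nrg3 was dim. Angptl1, an angiopoietin-like gene, was lower by −0.83 ± 0.14 (limma, adjusted p = 0.00791; 0.0744 with an ordinary t statistic). The resistin-like genes Retnla, Retnlb and Retnlg were dim.

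**Figure D4:**
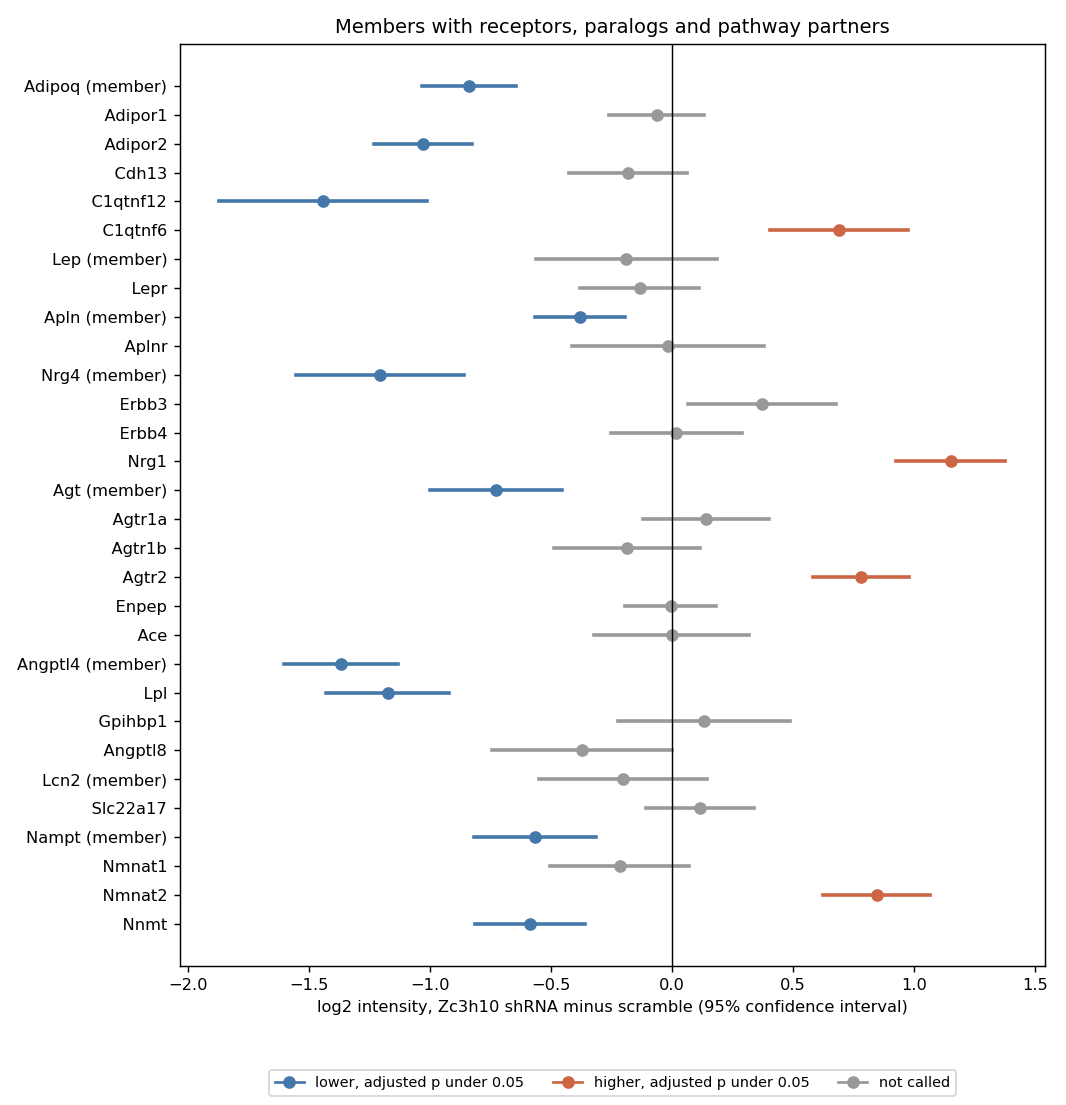
Log2 change (x axis, Zc3h10 shRNA minus scramble, point and 95% confidence interval) of members and, under each, its receptors, relatives or partners. Adipor2 and Lpl lie below 0 with Adipoq and Angptl4, while Nrg1, Agtr2 and Nmnat2 lie above 0 where Nrg4, Agt and Nampt lie below.

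The lipase that Angptl4 restrains was lower as well. Of 9 measured genes of the lipoprotein lipase axis, 3 fell and 0 rose, beside 6.60% lower and 5.51% higher of all named genes. At an unadjusted p under 0.05 the counts were 5 and 1, and by an ordinary t statistic 2 and 0. The median was −0.24. Higher calls numbered 2 with an offset of 32 and 1 with an intensity trend or dim probe sets left out. Lpl, the lipase that frees fatty acids from lipoproteins and 1 of the 10 fat cell markers, read 3325, 3415 and 3602 in scramble and 1757, 1418 and 1429 in Zc3h10 shRNA cells. All 3 Zc3h10 shRNA arrays lay far under the lowest scramble array, and the change was −1.17 ± 0.11. Vldlr, a lipoprotein receptor gene, was at −0.78 ± 0.10 (limma, adjusted p = 0.00238). Pcsk6, a proprotein convertase gene, was at −0.40 ± 0.09 (limma, adjusted p = 0.0327), and missed the threshold without any 1 array (adjusted p up to 0.110). Furin, which can cleave Angptl4, was at 0.25 ± 0.09 (limma, adjusted p = 0.128) and was called higher under those 3 settings. Angptl8, a partner of Angptl4, was at −0.37 ± 0.16 (limma, adjusted p = 0.228), and Gpihbp1, the lipase anchor of capillaries, was dim.

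Genes of NAD metabolism beside Nampt, not all of them of its synthesis, went both ways. Of 11 measured, 2 fell and 1 rose, beside 6.60% lower and 5.51% higher of all named genes, with a median of −0.18. The lower count was 4 with an offset of 32 and 3 with an intensity trend or dim probe sets left out. It was 1 with an ordinary t statistic or the replicate number as a block. Nmnat2, which makes NAD from the product of Nampt, read 191, 179 and 209 in scramble and 329.8, 363 and 348 in Zc3h10 shRNA cells. It was higher on every Zc3h10 shRNA array, by 0.85 ± 0.10 (limma, adjusted p = 0.00168). Nnmt, which methylates nicotinamide and so takes away the substrate of Nampt, was at −0.59 ± 0.10 (limma, adjusted p = 0.00872). Nadsyn1, of another NAD route, was at −0.54 ± 0.12 (limma, adjusted p = 0.0322; 0.126 with an ordinary t statistic), near the dim limit. Its call was kept by leaving out Zc3h10 shRNA replicate 3 but by leaving out no other array. Nadk, the NAD kinase gene, was at −0.33 ± 0.10 (limma, adjusted p = 0.0822).

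Among genes that fold and release adiponectin, the count of calls varied with the setting. Of 9 measured, 2 fell and 0 rose, beside 6.60% lower and 5.51% higher of all named genes. At an unadjusted p under 0.05 the counts were 4 and 0, and the median was 0.01. An offset of 32 gave 4 lower and an intensity trend 3, while quantile normalization and an ordinary t statistic gave 1 each. Ero1a, an oxidase of the endoplasmic reticulum that frees adiponectin from its retention partner, was at −0.51 ± 0.09 (limma, adjusted p = 0.00967). Erp44, that partner, was at 0.08 ± 0.08, with a 95% confidence interval of −0.11 to 0.27. Plod1, a collagen lysyl hydroxylase gene, was at −0.44 ± 0.11 (limma, adjusted p = 0.0471). It kept the threshold without Zc3h10 shRNA replicate 1 but not without any other array, nor with an ordinary t statistic (adjusted p = 0.127). P4hb was at −0.25 ± 0.09 and did not pass (limma, adjusted p = 0.153), but was called with the offset or the trend.

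Several regulators of adipokine genes were lower. Of 19 measured, 8 fell and 1 rose, beside 6.60% lower and 5.51% higher of all named genes, with a median of −0.15. Leaving out scramble replicate 1 lowered the count of 8 to 6, leaving out scramble replicate 2 to 5, and leaving out any other array to 4, while an ordinary t statistic gave 5. The higher count of 1 became 2 with quantile normalization and 3 with an offset of 32, dim probe sets left out or an intensity trend. It was 0 without any 1 array or with the replicate number as a block. Cebpa, the gene of C/EBPα, was at −1.71 ± 0.14. Pparg, the gene of PPARγ and also 1 of the 10 fat cell markers, was at −0.96 ± 0.12. Srebf1, a regulator of lipid synthesis, was at −0.90 ± 0.09 and Ppara, the gene of PPARα, at −0.64 ± 0.10 (limma, adjusted p = 0.00620). Atf3, a stress-induced factor, was at 0.44 ± 0.10 (limma, adjusted p = 0.0340) and missed the threshold without any 1 array.

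Other secreted adipocyte factors included falls in acute-phase and growth factor genes. Of 26 measured, 5 fell and 2 rose, beside 6.60% lower and 5.51% higher of all named genes. The median was −0.10 and 12 were dim. Orm1, an acute-phase carrier protein gene whose close copies can share probes, read 277, 316 and 304 in scramble and 135, 109 and 104 in Zc3h10 shRNA cells. Hp, the gene of the haemoglobin binder haptoglobin, read 398, 472 and 442 in scramble and 207, 201 and 166 in Zc3h10 shRNA cells. For both genes the groups were far apart. The changes were −1.37 ± 0.12 and −1.20 ± 0.12 (limma, adjusted p = 0.000806 and 0.00107). Igf1, insulin-like growth factor, was at −1.07 ± 0.18 (limma, adjusted p = 0.00742; 0.0862 with an ordinary t statistic). Vegfa, the angiogenic factor, was at −0.59 ± 0.08 (limma, adjusted p = 0.00427). Saa3, the fifth called lower, was dim in both groups. The chemokine gene Ccl2 rose by 2.40 ± 0.16, against the direction of the members, and the guidance factor gene Slit2 was at 0.37 ± 0.09 (limma, adjusted p = 0.0372) but missed the threshold without any 1 array. The inflammatory cytokine genes Il6 and Tnf were dim.

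**Figure D5:**
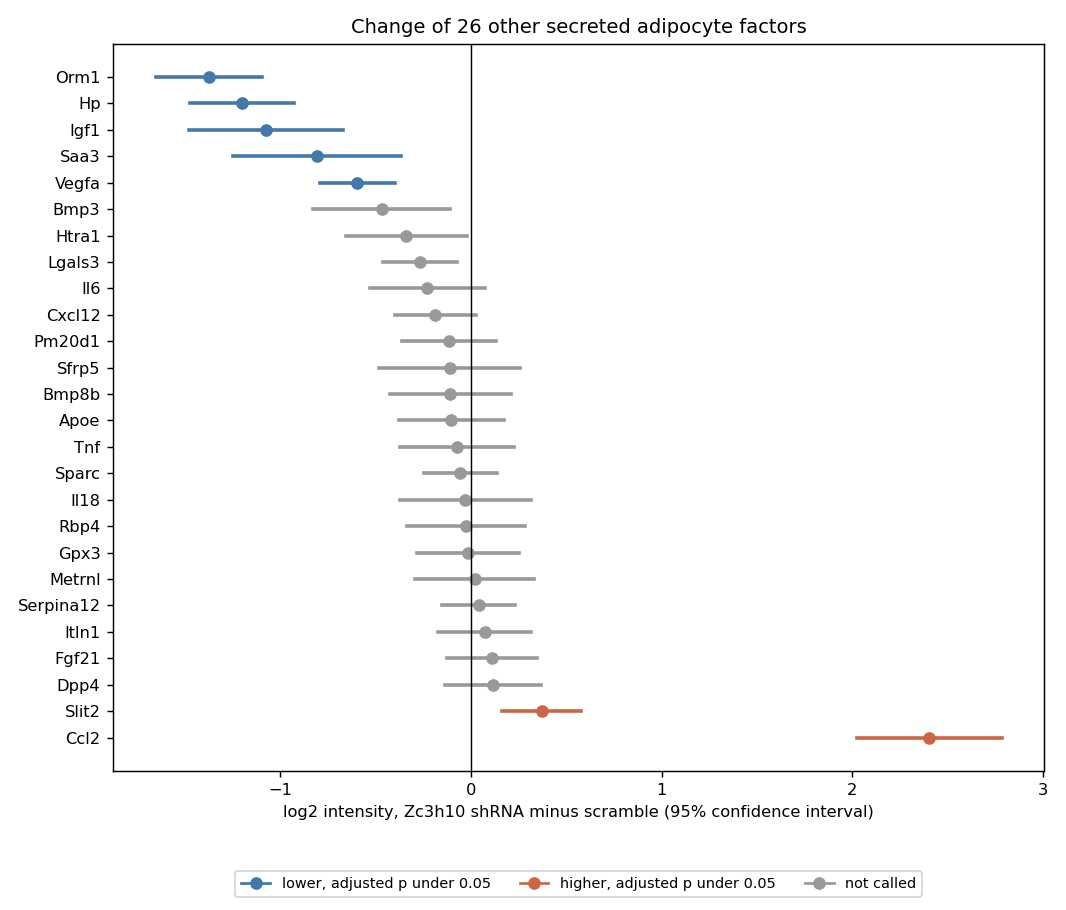
Log2 change (x axis, Zc3h10 shRNA minus scramble, point and 95% confidence interval) of 26 other secreted adipocyte factors, ordered by size. Orm1, Hp, Igf1, Saa3 and Vegfa were called lower and Slit2 and Ccl2 higher, with the other 19 not called.

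The genes with the array pattern nearest to that of Adipoq and of Angptl4, the member with the largest change, were found by Euclidean distance of log2 deviations from the gene's own mean over the 6 arrays. Predicted or unnamed genes and microRNA, small RNA, olfactory and vomeronasal receptor genes were left out. The deviations were not scaled, so a small distance largely means a change of like size. Distances are a description and carry no test. Nearest to Adipoq were Pomt1, an O-mannosyltransferase gene (distance 0.0845, change −0.87), the sterol transporter gene Abcg1 (change −0.78) and Nsun3, an RNA methyltransferase gene (distance 0.113, change −0.84). Nearest to Angptl4 were Tgoln1, a trans-Golgi protein gene with a close copy that can share probes (distance 0.120, change −1.42), the paraoxonase gene Pon3 (distance 0.141, change −1.33) and Acacb, an acetyl-CoA carboxylase gene (distance 0.146, change −1.38).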

How the data were processed

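Total RNA of 6 cultures was hybridised, biotin labelled, to 1 array each, per the labels, and samples were grouped by their replicate titles. The deposited table holds probe set intensities on a linear scale. Lower quartiles of 7.05 to 7.25 and upper quartiles of 76.2 to 79.1 were nearly equal between arrays, and no source used here states whether or how arrays were scaled. The submitters' processing notes list Partek 6.6 and Affymetrix Expression Console. The sources used here do not give how background was corrected and probes summarised, which bears above all on dim probe sets. Log2 was taken with no pseudocount. All 33079 probe sets were fitted in limma 3.58.1 (R 4.3.3, lmFit and eBayes, 4 residual degrees of freedom), with Benjamini-Hochberg adjustment over all of them, an adjusted p under 0.05 as the threshold, as in the series' design text, and no detection filter. Symbols came from the platform annotation (23043 probe sets with 1 symbol, 1740 with several, 8296 unnamed here), checked by gene number against RefSeq (0 changed, 169 without a match). The members and lists were chosen with earlier results of these data known. The rule for named genes took the members, Zc3h10, the 4 smallest p-values of each list, direct receptors, and the 3 nearest patterns to 2 members. Genes named outside it, such as those in figures or called dim, and the order of the text, were chosen after their values were seen. p-values measure the spread between cultures called biological replicates. The code was tested on simulated data for this comparison over 33079 probe sets. Changes of 1.5-fold, 2-fold and 3-fold were put into 67, 67 and 66 probe sets with a mean at or above the median. Of these limma recovered 46.3%, 98.5% and 100%, and it called 10 unchanged probe sets. Far fewer probe sets were changed there than the 3238 called in the data. Benjamini-Hochberg adjustment depends on how many probe sets change, so these shares do not give the recovery in the data. Recovery below that median was not simulated. Alternatives were other scalings, an offset, a filter on dim probe sets, an intensity trend, an ordinary t statistic, the replicate number as a block and each array left out.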

Additional observations from a re-analysis of the deposited data

How the results depend on the processing

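Over 13 alternative settings, Adipoq, Retn, Nrg4 and Angptl4 kept their direction and their side of the threshold in each. No member changed direction under any setting. The count of lower members was 7 with quantile normalization, median centring, an offset of 32, dim probe sets left out or an intensity trend, 5 with the ordinary t statistic, and 5 to 6 with 1 array left out. The ordinary t statistic, which uses no shared spread, ended the calls of Agt (−0.73) and Nampt (−0.57), and the number of probe sets called was 1972 against 3238. With 1 array left out, fewer samples were tested: the probe set count ran from 1807 to 2578, the change of Apln from −0.39 to −0.37, that of Nampt from −0.67 to −0.51, that of Lcn2 from −0.38 to −0.08 and that of Lep from −0.36 to −0.04. Lcn2 came nearest to the threshold without scramble replicate 1 (−0.38, adjusted p = 0.0804), the lowest scramble array for this gene. Lep and Lcn2 were called under none of the settings that gave a value, and Lep gave none with dim probe sets left out. Each member has 1 probe set, so averaging probe sets gave no separate value. Same-numbered arrays did not deviate together (r of 0.08, −0.00 and 0.04), so the numbers are not taken as pairs. With the replicate number as a block, 6 members were lower, Apln at −0.38 missed the threshold (adjusted p = 0.0648), and 2455 probe sets were called. The cause of these losses was not tested. Counts in the lists moved by over 1.5 times most often with the offset of 32 and with the ordinary t statistic, in 6 of the counts each. Signal over background limits what can be said of Lep and of the dim receptor genes.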
